A study of Homo sapiens with 12 samples.

Results

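The complement system is a cascade of plasma and cell-surface proteins that marks and attacks cells. C1R and C1S are the serine proteases of the C1 complex that open the classical pathway, C3 is the central component that all pathways cleave, and CFB supplies the protease of the alternative pathway. Regulators hold the cascade back. SERPING1 (C1 inhibitor) blocks C1R and C1S, CFI cuts activated C3 and C4 fragments, CD46 is a surface cofactor for CFI, CD55 takes C3 convertases apart, and CD59 blocks the membrane attack complex. The liver makes most circulating complement, and many carcinoma cells carry the 3 surface regulators and make some of the soluble factors.

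These 9 genes were read in the RNA counts of 12 libraries, from 57187 genes in the table. They were chosen by name as complement genes with values in these tumor lines, from earlier results on the same counts, so their levels are given as a description without a test. The lines were HCC1954 and MDA-MB-231 from breast cancer and SKOV3 and OVCAR8 from ovarian cancer, and each gave 1 library per condition. The EV libraries came from control cells, which the labels call parental and untreated and the methods also call empty vector. The SIVA-WT and SIVA-D160N libraries came from cells of the same line stably transfected with SIVA1, a gene of apoptosis signaling, in its normal form or with the D160N substitution. The transfectants were selected with hygromycin and carried the gene behind the CMV promoter, so each is a pool of cells with expression above the native level. Nothing in the labels says that libraries came from separate cultures, and the replicates of a condition are its 4 lines. Of the 9 genes, 8 passed the filter on low counts that left 17211 genes for the tests. CFB did not pass, and its counts are given without a test.

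Counts per library ran from 35791455 to 45890398, and 3 counts, taken here as the limit of detection, correspond to 0.0664 to 0.0856 CPM (counts scaled to a common library size). SIVA1 was higher in both transfectants than in EV in every line. HCC1954 EV cells had 0 SIVA1 counts, which allows up to 0.072 CPM, against 38.2 CPM with SIVA-WT and 26.5 CPM with SIVA-D160N. Gene counts do not separate the WT and D160N forms. PAX8, a Mullerian marker, was at 61.1 CPM or more in both ovarian lines and at most 3.43 CPM in the breast lines. GATA3, a breast luminal marker, was at 42.8 to 49.7 CPM in HCC1954 and at most 2.86 CPM in MDA-MB-231, where ESR1 had at most 1 count. Other markers did not follow the tissue. MUC16, used as an ovarian marker, was near 0 in OVCAR8 and at 66.1 to 115 CPM in HCC1954. WT1, from the same list, was at 5.55 to 8.06 CPM in HCC1954 and at most 1.11 CPM in SKOV3. TRPS1, listed as breast luminal, was at 31.7 to 47.1 CPM in SKOV3 and 11.2 to 16.3 CPM in MDA-MB-231. GATA3 was at 5.68 to 6.28 CPM in OVCAR8, above MDA-MB-231. Summed leukocyte markers lay between 0.172 and 1.73 CPM in all libraries.

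The levels of the soluble factors were set apart by line more widely than those of the surface regulators. HCC1954 held the highest mean of 7 of the 9 genes, the exceptions being CD59 in SKOV3 and SERPING1 in OVCAR8. MDA-MB-231, the other breast line, held the lowest mean of C3, C1R, C1S and SERPING1, and CFB and CFI were at or below the limit of detection there and in OVCAR8. In such bulk RNA, fewer cells with a transcript and less transcript per cell cannot be told apart. Of the 8 genes that passed the filter, 4 (CFI, C1S, CD46 and SERPING1) had a highest line whose 3 libraries all lay above the other 9. Such a separate highest line was found for 58.5% of all genes tested, and 16.0% had it in HCC1954, as did CFI, C1S and CD46.

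**Figure D1:**
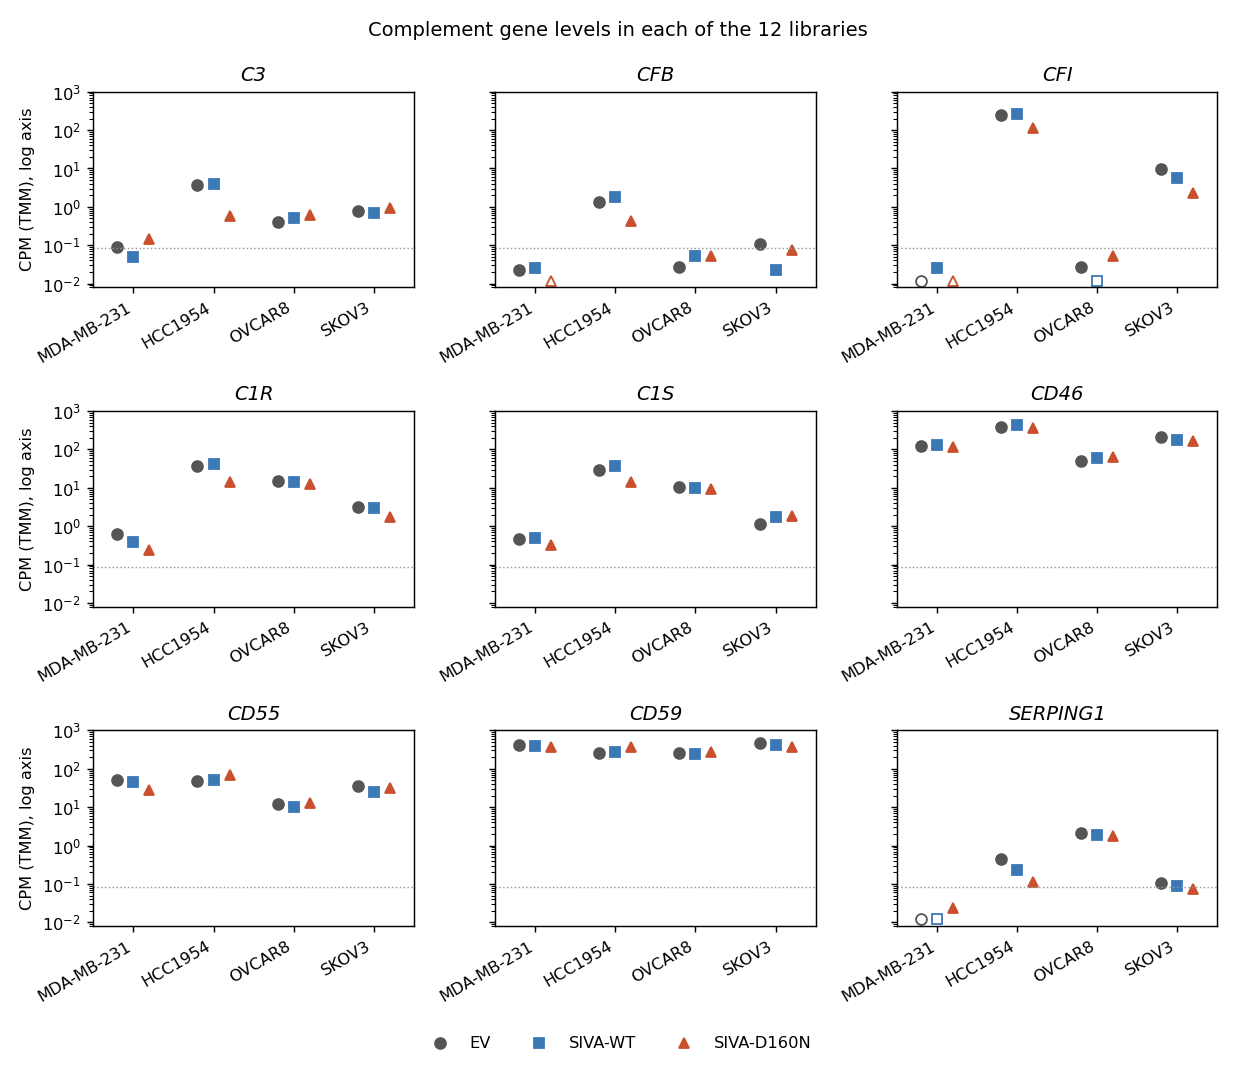
Level of each gene in each library, in CPM after TMM scaling on a log axis, by cell line, with EV as circles, SIVA-WT as squares and SIVA-D160N as triangles (1 library per point). Open symbols are libraries with 0 counts drawn at the bottom, and the dotted line is the highest level that 3 counts give (0.0856 CPM). The soluble factors spread over several log steps between lines, while CD59 stays between 242 and 483 CPM in all 12 libraries.

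C3, the hub of the cascade, lies on chromosome 19 (GRCh38.p14 chr19:6677704-6720650). In HCC1954 it was read 155 times in EV, 168 times in SIVA-WT and 20 times in SIVA-D160N. SKOV3 gave 30, 31 and 39 counts in the same order, OVCAR8 gave 15, 19 and 24, and MDA-MB-231 gave 4, 2 and 6. The mean over the 3 libraries of a line was 2.73 ± 1.87 CPM (SD, n = 3) in HCC1954, 0.817 ± 0.134 in SKOV3, 0.513 ± 0.109 in OVCAR8 and 0.0949 ± 0.0479 in MDA-MB-231. The HCC1954 and SKOV3 libraries overlapped, because the SIVA-D160N library of HCC1954 (0.571 CPM) lay below all 3 of SKOV3 (0.695 to 0.960 CPM).

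CFB (chr6:31946095-31952084) reached 10 counts in HCC1954 alone, with 54 counts in EV, 78 in SIVA-WT and 15 in SIVA-D160N. The other 9 libraries held between 0 and 4 counts. CFB lies next to C2 on chromosome 6, and reads that run from one gene into the other could not be assigned here. C2, its counterpart in the classical pathway, stayed between 3 and 21 counts in every library.

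CFI, the soluble C3b protease, had the widest range of the set. It lies on chromosome 4 (chr4:109730982-109801999). HCC1954 gave 245 CPM in EV, 260.4 in SIVA-WT and 110.4 in SIVA-D160N, and SKOV3 gave 9.54, 5.49 and 2.36 CPM. The mean in HCC1954 (205 ± 82.4 CPM, n = 3) was 35.4 times that in SKOV3 (5.80 ± 3.60). MDA-MB-231 and OVCAR8 held 0 to 2 counts per library, at or below the limit of detection.

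C1R and C1S lie side by side on chromosome 12 (chr12:7080219-7092445 and chr12:7060718-7071032), with 9186 bases between them, and followed the same order of lines. C1R averaged 31.3 ± 15.2 CPM in HCC1954, 14.0 ± 1.00 in OVCAR8, 2.63 ± 0.766 in SKOV3 and 0.414 ± 0.191 in MDA-MB-231 (n = 3 each). C1S averaged 26.5 ± 11.1, 9.96 ± 0.451, 1.55 ± 0.365 and 0.429 ± 0.0998 CPM in the same order of lines. The first and last lines differed 75.6-fold for C1R and 61.8-fold for C1S. For C1R the ranges of HCC1954 and OVCAR8 overlapped, with 14.1 CPM in HCC1954 SIVA-D160N against 12.9 to 14.8 CPM in OVCAR8. For C1S no neighbouring lines overlapped. Over the 12 libraries the log2 CPM of the pair had a Pearson r of 0.98, which mostly compares 4 line levels, and 0.65 after the mean of each line was removed.

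SERPING1 (chr11:57597685-57614848), the inhibitor of both proteases, was highest in OVCAR8, with HCC1954 next. Over the 12 libraries its log2 CPM had a Pearson r of 0.74 with C1R and 0.71 with C1S. OVCAR8 had 79 counts in EV, 73 in SIVA-WT and 66 in SIVA-D160N, a mean of 1.94 ± 0.220 CPM (n = 3). HCC1954 had 19, 10 and 4 counts, with a mean of 0.267 ± 0.174 CPM. SKOV3 had 3 or 4 counts per library and MDA-MB-231 had 0 or 1.

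The 3 surface regulators were read in every library. CD46 and CD55 lie on chromosome 1 (chr1:207752038-207795516 and chr1:207321678-207360966), 391 kb apart, and CD59 lies on chromosome 11 (chr11:33703010-33736479). CD46 averaged 391 ± 49.2 CPM in HCC1954, 185 ± 21.3 in SKOV3, 125 ± 7.23 in MDA-MB-231 and 57.3 ± 6.46 in OVCAR8 (n = 3 each), and no neighbouring lines overlapped. CD55 averaged 56.4 ± 11.8 CPM in HCC1954, 41.5 ± 11.3 in MDA-MB-231 and 30.9 ± 5.85 in SKOV3, and OVCAR8 was lowest at 11.7 ± 1.42. The libraries of HCC1954, MDA-MB-231 and SKOV3 overlapped for CD55, and those of OVCAR8 lay below all of them. CD59 was the most even gene, with 419 ± 61.1 CPM in SKOV3, 389 ± 26.4 in MDA-MB-231, 301 ± 60.5 in HCC1954 and 256 ± 17.5 in OVCAR8. Every pair of neighbouring lines overlapped for CD59, and the first and last line differed 1.63-fold.

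Genes were compared with each other after division by the merged exon length of the gene in a GENCODE annotation, as CPM per kb. On that scale CD59 was the highest of the 9 genes in SKOV3 (39.7), OVCAR8 (24.3) and MDA-MB-231 (36.9). In HCC1954 CFI came first at 38.6 CPM per kb, ahead of CD59 (28.5) and CD46 (25.2). Merged exons take in every annotated transcript, 15505 bases for CD46, 10557 for CD59 and 5319 for CFI. This order and the shares below depend on those lengths. Without the division, the HCC1954 means of CD46 (391 CPM) and CD59 (301 CPM) lay above that of CFI (205 CPM). The 3 surface regulators made up 99.6% to 99.8% of the summed CPM per kb of the set in MDA-MB-231, 85.6% to 88.2% in OVCAR8 and 95.9% to 97.7% in SKOV3. HCC1954 had 48.2% in EV, 48.4% in SIVA-WT and 71.6% in SIVA-D160N. In that line the soluble factors summed to 57.9 CPM per kb in EV, 63.2 in SIVA-WT and 25.7 in SIVA-D160N, while the surface regulators summed to 53.9, 59.2 and 64.6.

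The comparison of SIVA-D160N with EV asked whether the mutant form went with other levels of these genes across the 4 lines. CFI and C1R had the lowest p-values of the set and were lower in the SIVA-D160N cells, but no gene of the set passed the thresholds. In edgeR's quasi-likelihood fit with a term for the line, calls needed an adjusted p (FDR) under 0.05 together with a log2 fold change of 1.5 or more in size. The set had 0 of 8 genes called, where 0.00581% of all genes tested (1 gene) were called, and DESeq2 and limma-voom also called 0 of the 8. At an unadjusted p under 0.05 it had 2 of 8, against 14.2% of all genes. The median log2 fold change of the 8 genes was -0.32 and that of all genes was -0.01.

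CFI had a log2 fold change of -1.51 (SE 0.25, 95% interval -2.06 to -0.96, unadjusted p = 8.57e-05, edgeR adjusted p = 0.128). The fitted value rests on HCC1954 and SKOV3, since the other lines held 0 to 2 counts. It was -1.81 without HCC1954 and -1.09 without SKOV3. When the filter on low counts was dropped, the edgeR adjusted p of CFI was 4.51e-06 at a log2 fold change of -1.50, and 172 of 34909 genes were called. With the filter, DESeq2 gave CFI an adjusted p of 0.394 at -1.21 (SE 0.71), and limma-voom 0.0535 at -1.27 (SE 0.24).

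C1R was the 1 gene of the 8 that was lower in SIVA-D160N than in EV in all 4 lines, which held for 8.34% of all genes tested. Its level went from 0.619 to 0.243 CPM in MDA-MB-231, from 37.1 to 14.1 in HCC1954, from 14.8 to 12.9 in OVCAR8 and from 3.15 to 1.75 in SKOV3. The log2 fold change was -0.85 (SE 0.24, 95% interval -1.37 to -0.33, unadjusted p = 0.00418, edgeR adjusted p = 0.193). Without HCC1954 the log2 fold change of C1R was -0.63, and without the SIVA-D160N library of that line -0.54. DESeq2 gave C1R an adjusted p of 0.0358 at -0.87, below the threshold on size, in a fit that gave 340 of 17211 genes an adjusted p under 0.05. With no filter on low counts, edgeR gave C1R an adjusted p of 0.0133 at -0.85. That fit gave 552 of 34909 genes an adjusted p under 0.05.

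For the other 6 genes the edgeR adjusted p lay between 0.461 and 0.986. SERPING1 had a log2 fold change of -0.69 (95% interval -1.57 to 0.19), C3 of -0.39 (-1.65 to 0.86) and C1S of -0.24 (-0.80 to 0.31). C3 was lower in HCC1954 alone and had higher CPM in the other 3 lines, and its log2 fold change was 0.46 without HCC1954. Also without HCC1954, SERPING1 had -0.27 and C1S had 0.06. The surface regulators had narrow intervals around 0. CD46 had -0.04 (-0.28 to 0.20), CD55 had -0.07 (-0.49 to 0.34) and CD59 had 0.01 (-0.27 to 0.29).

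**Figure D2:**
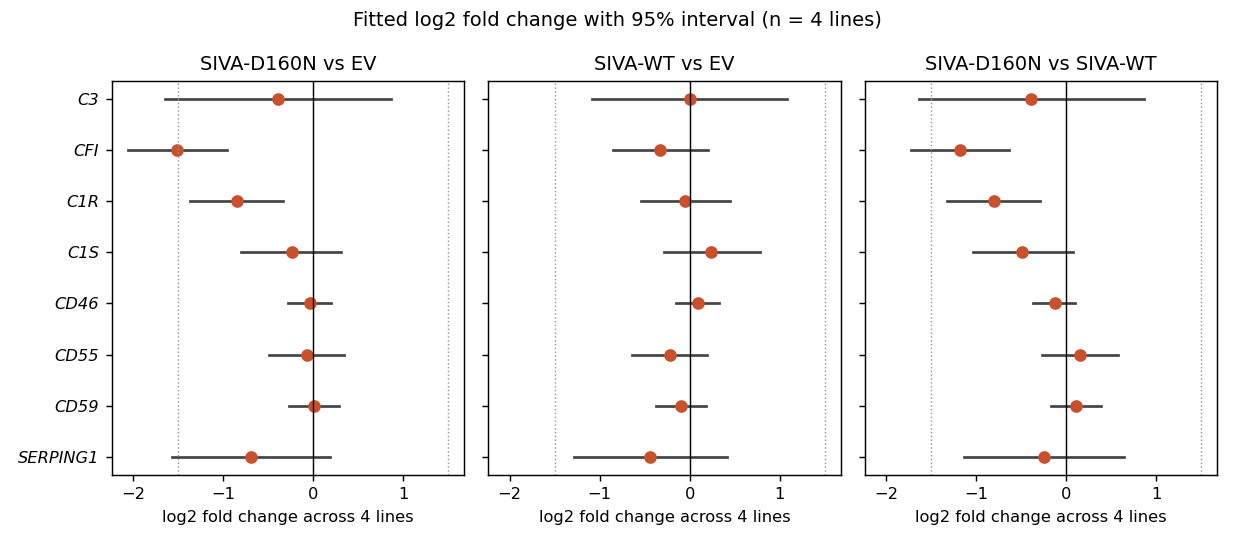
Fitted log2 fold change (x axis) of the 8 genes that passed the filter in each of the 3 contrasts, as points with 95% intervals (n = 4 lines), with dotted lines at the threshold of 1.5 on either side. CFI and C1R lie below 0 with their whole interval in both contrasts of SIVA-D160N, and no interval of SIVA-WT vs EV leaves 0. The CFI points rest on HCC1954 and SKOV3, since CFI was at or below the limit of detection in the other lines.

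The SIVA-WT cells gave the comparison with the unmutated gene. No gene of the set was called in SIVA-WT vs EV, as 0% of all genes were, and 0 of 8 had an unadjusted p under 0.05, against 2.54% of all genes. Every edgeR adjusted p was 1.00, and the log2 fold changes ran from -0.44 for SERPING1 to 0.24 for C1S. CFI had -0.33 (95% interval -0.85 to 0.20) and C1R had -0.05 (-0.54 to 0.45). Within single lines, none of the 8 genes differed 2-fold or more in SIVA-WT vs EV, a size that 14.9% of all genes reached in at least 1 line.

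The direct test of the mutation, SIVA-D160N vs SIVA-WT, again called 0 of 8 genes and 0% of all genes. With an unadjusted p under 0.05 there were 2 of 8, against 6.88% of all genes. These were CFI (-1.18, SE 0.25, unadjusted p = 5.58e-04, edgeR adjusted p = 0.719) and C1R (-0.80, SE 0.23, unadjusted p = 0.00575, edgeR adjusted p = 0.719). With no filter on low counts, the edgeR adjusted p of CFI was 6.38e-04 at -1.19, short of the threshold on size. In that fit 109 of 34909 genes had an adjusted p under 0.05. With the filter, DESeq2 gave CFI an adjusted p of 0.847 at -0.93 (SE 0.71), and limma-voom 0.272 at -1.16 (SE 0.24). The contrast shares its SIVA-D160N libraries with the one against EV. Within single lines C1R stood at 0.330 times its SIVA-WT level in HCC1954 and 0.587 times in SKOV3. It stood at 0.641 times in MDA-MB-231 (0.257 to 1.52, 10 against 15 counts) and 0.895 times in OVCAR8 (0.791 to 1.01). Those 95% intervals, which cover counting error only, included 1. C1S had a log2 fold change of -0.49 (95% interval -1.04 to 0.07). Without HCC1954 the log2 fold changes were -0.45 for C1R and -0.12 for C1S, and without the SIVA-D160N library of that line alone -0.49 and -0.14.

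Within HCC1954 the soluble factors were lower in the SIVA-D160N library, and CD55 and CD59 were higher. Of the 8 genes that passed the filter, 4 were at least 2-fold lower in SIVA-D160N than in EV (C3, CFI, C1R and SERPING1), against 5.51% of all genes, with C1S just outside at a log2 ratio of -0.97. These ratios compare 1 library with 1 library, so they have no replicate check, and their exact 95% intervals cover counting error only. C3 stood at 0.154 times the EV level (0.0912 to 0.245), and 0.267% of all genes had a lower ratio. CFB, not tested, stood at 0.330 times (0.173 to 0.594), C1R at 0.380 (0.343 to 0.421), CFI at 0.451 (0.435 to 0.469) and C1S at 0.510 (0.459 to 0.566). SERPING1 went from 19 to 4 counts, 0.250 times the EV level (0.0620 to 0.754). It passed the filter only with its HCC1954 EV library counted beside those of OVCAR8. Its place among the 4 lower genes is therefore not independent of that EV value. CD46 stood at 0.935 times (0.913 to 0.957), CD59 at 1.40 (1.37 to 1.44) and CD55 at 1.46 (1.38 to 1.55).

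The same library was compared with SIVA-WT of HCC1954. There C3, CFI, C1R and C1S were at least 2-fold lower, 4 of 8 genes against 6.41% of all genes. C3 stood at 0.146 times the SIVA-WT level (0.0871 to 0.233), C1R at 0.330 (0.298 to 0.365), C1S at 0.398 (0.359 to 0.440) and CFI at 0.424 (0.409 to 0.440). CFB fell from 78 to 15 counts, 0.236 times (0.126 to 0.414). Both comparisons turn on 1 SIVA-D160N library, and its depth of 36444830 counts was the lowest of the line.

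Markers of other cell types moved in that library too. The endothelial markers PECAM1, CDH5 and VWF, all 3 detected in HCC1954, summed to 91.6 CPM in EV, 79.0 in SIVA-WT and 46.2 in SIVA-D160N. Of 4 hepatocyte markers FGB had 1309, 2231 and 335 counts in the same order, while TTR was at 0 in all 3 libraries and ALB and APOA1 had at most 2 counts. The mesenchymal marker VIM stood at 95.6, 161 and 290.2 CPM and MUC16 at 66.1, 75.7 and 115 CPM. The epithelial markers summed to 5876, 5755 and 7527 CPM, a sum carried by KRT8 and KRT18, while from EV to SIVA-D160N KRT19 went from 30.9 to 13.5, CDH1 from 807 to 695 and EPCAM from 248 to 234 CPM. ERBB2 with GRB7 summed to 10712, 8838 and 6950.0 CPM. Leukocyte markers summed to 0.571 to 0.836 CPM and fibroblast markers to 0.0240 to 0.114 CPM. The part of these markers in the complement values was not tested.

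**Figure D3:**
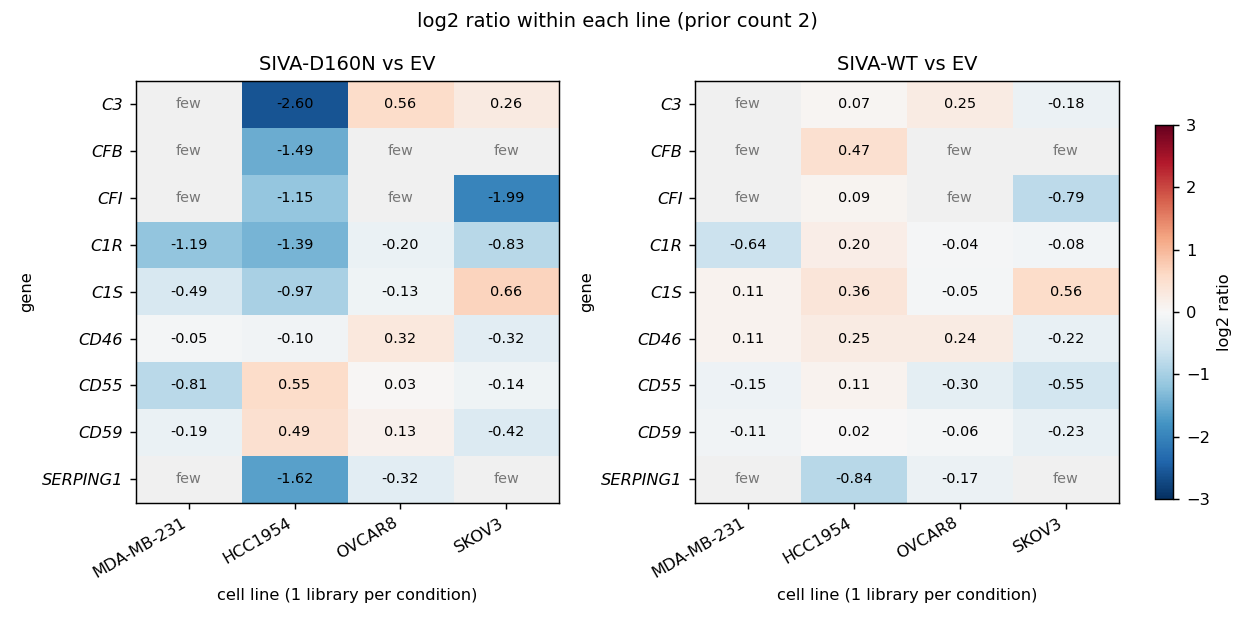
Log2 ratio of SIVA-D160N vs EV (left) and SIVA-WT vs EV (right) for each gene (rows) in each line (columns), from CPM with a prior count of 2, with lower values in blue and higher in red. Cells marked few have under 10 counts in both libraries. The HCC1954 column of SIVA-D160N holds 6 genes at -0.97 or lower, and CFI in SKOV3 stands at -1.99.

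SKOV3 differed from HCC1954 in which genes were lower. CFI stood at 0.248 times the EV level in SIVA-D160N (0.196 to 0.311, 96 against 360 counts) and was the 1 gene of 8 at least 2-fold lower, against 6.05% of all genes. SIVA-WT cells of SKOV3 had 245 CFI counts, 0.576 times the EV level (0.487 to 0.679), and against those SIVA-D160N was again the lower, at 0.431 times (0.336 to 0.547). In that contrast CFI was 1 of 8 genes, against 1.85% of all genes. C1R stood at 0.555 times EV (0.408 to 0.751). C1S was higher in both transfectants, with 43 counts in EV, 76 in SIVA-WT and 74 in SIVA-D160N. CD59 went from 483 to 362 CPM and CD46 from 209 to 167 CPM, both lower in SIVA-D160N than in EV.

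In MDA-MB-231 C1R was the 1 gene of 8 at least 2-fold lower in SIVA-D160N than in EV, against 4.30% of all genes, with 10 against 28 counts (0.392 times, 0.170 to 0.832). CD55 stood at 0.571 times (0.532 to 0.613), from 50.3 to 28.7 CPM, with 45.3 CPM in SIVA-WT. OVCAR8 had 0 of 8 genes 2-fold lower, against 1.55% of all genes. There C1R stood at 0.871 times EV (0.769 to 0.986), C1S at 0.914 (0.789 to 1.06) and CD46 at 1.25 (1.18 to 1.33). No gene of the 8 was 2-fold higher in SIVA-D160N than in EV in any line, a size that 10.4% of all genes reached in at least 1 line.

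Whether the breast and ovarian lines differed in SIVA-D160N vs EV was tested by an interaction term over all 12 libraries. The set had 0 of 8 genes at an FDR under 0.05, against 0.00581% of all genes. At an unadjusted p under 0.05 it had 3 of 8, against 5.06% of all genes, all with a higher log2 fold change in the ovarian lines. The difference, ovarian minus breast, was 2.30 for C3 (95% interval 0.15 to 4.45, unadjusted p = 0.0387, edgeR adjusted p = 0.972), 1.06 for C1S (0.23 to 1.90, adjusted p = 0.964) and 0.95 for C1R (0.08 to 1.81, adjusted p = 0.972). Each tissue had 2 lines, and MDA-MB-231 had at most 28 counts of any of these 3 genes. For C3 the breast lines did not move together, with a log2 ratio of -2.60 in HCC1954 and 0.50 in MDA-MB-231 (6 against 4 counts). OVCAR8 had 0.56 and SKOV3 0.26, so the C3 difference rests on HCC1954.

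Other complement genes were read from a list of 50 names, of which 39 had a count and 16 passed the filter. None of the 16 was called. At an unadjusted p under 0.05, 5 of 16 were lower, against 7.68% of all genes, and 0 were higher in SIVA-D160N vs EV, with a median log2 fold change of -0.39 over the 16. Among them were C1RL (-0.54), C4B (-1.51), C5AR1 (-1.19) and ITGAX (-0.68), with edgeR adjusted p from 0.199 to 0.318. C4B passed the filter only with the EV library of MDA-MB-231 (17 counts) or SKOV3 (10 counts) counted beside the HCC1954 libraries. Its place among the 5 lower genes is therefore not independent of the EV values. In SIVA-WT vs EV there were 0 in either direction, and in SIVA-D160N vs SIVA-WT 4 of 16 were lower, against 4.30% of all genes, and 0 higher. The C1q chains, MBL2, FCN1 and C8B were at 0 in every library.

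In HCC1954, 6 of the 16 were at least 2-fold lower in SIVA-D160N than in EV, beside the 5.51% of all genes given above, and 0 were higher. C4A and C4B, the C4 genes cleaved by C1S, stood at 0.142 (0.105 to 0.188) and 0.155 times EV (0.116 to 0.204). They are near-identical copies, so the division of reads between them is uncertain. CLU, an inhibitor of the terminal complex, stood at 0.294 times (0.277 to 0.312), SUSD4 at 0.491 and C1RL, a C1R-like protease, at 0.489. In SKOV3 CLU went the other way, from 53.5 CPM in EV to 83.3 in SIVA-WT and 110.2 in SIVA-D160N. ITGB2, the beta chain of complement receptors, stood at 0.920 times EV in HCC1954 and C1QBP, a C1q-binding protein, at 1.11.

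**Figure D4:**
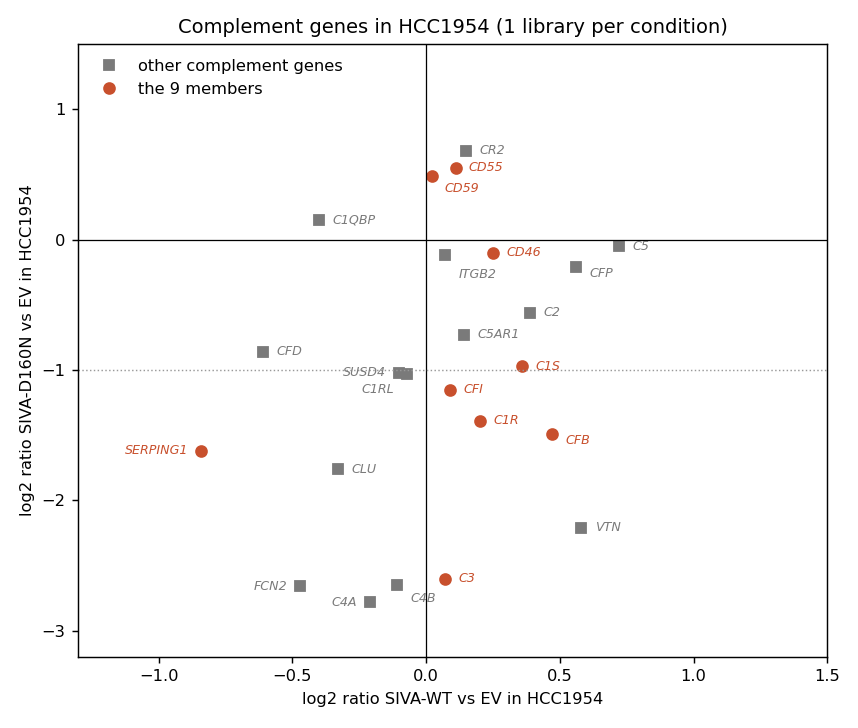
Log2 ratios in HCC1954 of SIVA-WT vs EV (x axis) and SIVA-D160N vs EV (y axis), which share the EV library, for the 9 genes (circles) and other complement genes (squares), each with at least 20 counts in 1 of the 3 libraries apart from SERPING1 with 19. Most soluble components lie near or below the dotted line at -1 on the y axis, with C2, CFD, CFP and C5 above it, and CD46, CD55, CD59, ITGB2 and C1QBP lie near 0 or above, while SUSD4 and C5AR1, also surface proteins, lie at -1.02 and -0.73.

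Interferon-gamma, interleukin-6 family cytokines and NF-kB signaling are known to raise complement transcription, and 11 of 12 listed genes of these routes passed the filter. In HCC1954 SIVA-D160N vs EV, STAT3 stood at 0.936 times, IRF1 at 1.07, RELA at 1.05 and NFKB1 at 1.34. CEBPB stood at 0.735 times, CEBPD at 0.725 and IFNGR1, a chain of the interferon-gamma receptor, at 0.559. IL1B went from 53 to 16 counts. IL6, named after its values were seen, went from 12 to 111 counts, 11.0 times (6.06 to 21.9). It was also higher in SIVA-WT of HCC1954 (69 counts, 5.57 times), and in MDA-MB-231 SIVA-D160N it stood at 0.222 times EV. There 4 of the 11 genes (CEBPB, IL6, IL1A and IL1B) were at least 2-fold lower, against 4.30% of all genes. In SIVA-WT of MDA-MB-231, 3 of the 11 were 2-fold lower than EV, against 2.10% of all genes. These were IL6 (0.272 times), IL1A (0.162) and IL1B (0.286). In SIVA-D160N vs EV, IL1A and IL1B were higher in OVCAR8 (4.64 and 5.92 times) and lower in SKOV3 (0.123 and 0.109 times). Across the 4 lines CEBPB had a log2 fold change of -0.54 (edgeR adjusted p = 0.262) and 0 of the 11 genes were called.

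Promoter windows of 250 bases before the transcription start were available from RefSeq (GRCh38.p14) for 6 of the 9 genes, the exceptions being C3, C1S and SERPING1. Windows of CFB, CFI and C1R are shown because these soluble factors were all lower in HCC1954 SIVA-D160N, 5′ to 3′ on the strand of the gene. Capitals mark matches to 4 motifs searched on both strands, the interferon-stimulated response element core GAAANNGAA, the gamma-activated sequence TTCNNNGAA, an NF-kB motif GGANNTTCC and a C/EBP motif TTGCNNAA. The CFB window is chr6:31945845-31946094 (+), the CFI window is chr4:109802000-109802249 (-) and the first C1R window is chr12:7092446-7092695 (-).
CFB: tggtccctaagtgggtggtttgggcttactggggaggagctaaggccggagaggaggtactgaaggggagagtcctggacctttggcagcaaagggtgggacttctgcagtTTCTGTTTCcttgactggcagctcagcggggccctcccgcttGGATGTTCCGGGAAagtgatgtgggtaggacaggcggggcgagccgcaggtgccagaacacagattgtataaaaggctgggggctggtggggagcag
CFI: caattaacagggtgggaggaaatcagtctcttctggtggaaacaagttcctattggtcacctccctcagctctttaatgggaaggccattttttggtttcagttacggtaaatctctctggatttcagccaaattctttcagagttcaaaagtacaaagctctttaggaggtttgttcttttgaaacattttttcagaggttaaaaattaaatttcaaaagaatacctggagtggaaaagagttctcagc
C1R: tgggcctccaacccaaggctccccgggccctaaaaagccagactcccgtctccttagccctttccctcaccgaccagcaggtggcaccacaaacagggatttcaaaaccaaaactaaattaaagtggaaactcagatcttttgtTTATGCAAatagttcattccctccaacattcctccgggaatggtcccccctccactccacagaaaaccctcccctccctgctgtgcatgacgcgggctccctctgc
The CFB window held TTCTGTTTC, a reverse-strand match to the interferon element, from 139 to 131 bases before the start. It also held GGATGTTCC (97 to 89 bases before) and TTCCGGGAA (92 to 84), matches to the NF-kB motif and the gamma-activated sequence that overlap each other. The C1R window held TTATGCAA, a reverse-strand match to the C/EBP motif, from 106 to 99 bases before the start, and the CFI window held no match. A second C1R window held a C/EBP match (TTGCTGAA, 167 to 160 bases before its start) and a gamma-activated sequence (TTCCTGGAA, 86 to 78). CD59, which had a higher level in that library, also had a window with a gamma-activated sequence (TTCTCAGAA) and an NF-kB match (GGAGGTTCC). Of 35116 promoter windows of this length, 6.88% held the interferon element core, 6.57% the gamma-activated sequence, 3.84% the NF-kB motif and 9.05% the C/EBP motif.

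The genes with the most similar levels over the 12 libraries, by Pearson r of log2 CPM, were mostly those that shared an order of the 4 lines. CFI was nearest to ESR1 (0.996) and MXRA5 (0.995), C1R to SYT7 (0.992), C1S to TMEM63C (0.988), C3 to TMEM37 (0.983) and CD46 to KCTD3 (0.995) and STAT3 (0.992). SERPING1 was nearest to NRARP (0.994), CD55 to PDIK1L (0.971) and CD59 to ABHD2 (0.957). After the mean of each line was removed, the nearest gene was ID2 for C3 (0.988), WDTC1 for C1R (0.988), NCSTN for C1S (0.983), ARL14 for CD59 (0.966) and IFNE for CFI (0.915). The 12 libraries share 4 lines, and these values describe likeness only.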

How the data were processed

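RNA was sequenced from 12 libraries of 4 cell lines. The authors aligned the reads to GRCh38 with STAR 2.5.3a and deposited raw counts per gene without normalization. Their table of CPM values was not used, and 0 columns of the count table lacked a library.

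The 17211 genes that passed filterByExpr were tested with edgeR 4.0.16 under R 4.3.3 (quasi-likelihood, TMM, terms for line and condition, all 12 libraries) and adjusted over all genes by Benjamini-Hochberg. Levels are CPM on TMM-scaled library sizes. Log2 ratios within a line used a prior count of 2, and intervals of single ratios are exact binomial at 95%. They cover counting error only, as does the limit of 3 counts. P-values rest on how differences between conditions vary from line to line, after the term for the line removed the level of each line.

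The line is the shared source of each trio and was the replicate block: libraries of one line deviated together from their condition means (r 0.929 to 0.968), and those of different lines did not (-0.447 to -0.191). Tested on simulated data for SIVA-D160N vs EV, the fit recovered 98.5% of 130 genes changed by 2 or 3 on the log2 scale. It called 3 unchanged genes, with 16902 genes tested in all. No recovery is given for smaller sizes, such as the -1.51 of CFI and -0.85 of C1R, or for differences that vary between lines. Alternatives were other normalizations, DESeq2 1.42.0, limma-voom (limma 3.58.1), no filter, no block and libraries left out.

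The members and lists were chosen with earlier results of these data known. All 9 genes were named, then SIVA1, other complement genes and inducers of complement that reach 10 CPM, and for each gene up to 3 with the highest r. IL6, C2, C5AR1, ITGAX and the low genes of the closing section were named after their values were seen. Values of some listed genes are not reported here, although the genes are part of the counts given. Gene positions and promoters are RefSeq's (GRCh38.p14). Python 3.11.15 and matplotlib 3.10.9 drew the figures. Exon lengths are merged exons of a GENCODE release lifted to GRCh37. Genes that overlap a member can share its reads.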

Additional observations from a re-analysis of the deposited data

Results flagged for a closer look

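Gaps were checked in 51 sets of 4 values, 1 per line, with Dixon's critical value at 95%, which chance passes in about 1 of 20 sets, or 2.6 of 51. The check found 4 sets in which 1 line stood apart. The log2 ratio of C3 in SIVA-D160N vs EV was -2.60 in HCC1954, against 0.26 to 0.56 in the other lines. The log2 CPM of CFB among the SIVA-WT libraries was 0.90 in HCC1954, against -3.79 to -3.29 in the others, which held 1 or 2 counts each. The log2 ratio of CD55 in SIVA-D160N vs SIVA-WT was -0.66 in MDA-MB-231 and 0.33 to 0.44 in the other lines. The log2 CPM of CD59 among the SIVA-D160N libraries was 8.11 in OVCAR8, against 8.50 to 8.53 in the others. None of these gaps was tested further.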

How the results depend on the processing

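Of 379 recomputed values, 339 kept their direction and their side of the threshold, 30 changed sign, and the cause was not tested for any of them. With no filter on low counts, 1 gene of the set was called in SIVA-D160N vs EV (CFI, log2 fold change -1.50). At an unadjusted p under 0.05 alone, the ovarian minus breast difference had 3 genes, SIVA-D160N vs SIVA-WT had 2 and SIVA-D160N vs EV had 2. The fits that dropped 1 line called 0 genes of the set in each of the 3 contrasts, and so did the fit with no replicate block. Without OVCAR8 SERPING1 did not pass the filter and has no value.

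In SIVA-D160N vs EV, C3 had a log2 fold change of 0.46 without HCC1954 and 0.49 without its SIVA-D160N library, an alternative chosen after seeing the data, as was leaving out its EV library. With 1 line left out at a time the range was -0.83 to 0.46 for C3, -0.52 to 0.06 for C1S, -0.16 to 0.06 for CD46, -0.29 to 0.14 for CD55 and -0.16 to 0.15 for CD59. Without HCC1954, or without that SIVA-D160N library, C1S had 0.06 and 0.09. CD46 had 0.06 without SKOV3 and 0.00 without the HCC1954 SIVA-D160N library, and CD55 had 0.14 without MDA-MB-231. CD59 had -0.04 with no replicate block, -0.16 without HCC1954, -0.03 without OVCAR8, -0.10 without the HCC1954 EV library and -0.14 without its SIVA-D160N library.

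In SIVA-WT vs EV, C3 had 0.03 with library totals alone, 0.00 with no filter, 0.04 with no replicate block, 0.04 without MDA-MB-231, 0.06 without SKOV3 and 0.51 without the HCC1954 EV library. CFI had 0.06 with no replicate block and 0.08 without SKOV3. C1R had 0.04 with limma-voom, 0.12 with no replicate block, 0.05 without MDA-MB-231 and 0.00 without the HCC1954 EV library. With 1 line left out the range was -0.07 to 0.06 for C3, -0.73 to 0.08 for CFI and -0.19 to 0.05 for C1R. In SIVA-D160N vs SIVA-WT, C3 had 0.53 without HCC1954, with a range of -0.89 to 0.53, and CD59 ranged from -0.02 to 0.20. Without the HCC1954 SIVA-D160N library C3 had 0.50, CD55 -0.02, CD59 -0.04 and SERPING1 0.03, and CD59 had -0.02 without HCC1954.

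A prior count of 0.5 in place of 2 left 19 of 24 counts of 2-fold genes within a line unchanged, and the other 5, in MDA-MB-231 and OVCAR8, moved by 1 or 2 genes. The highest line of all 9 genes was the same with library totals alone. Depth limits CFB outside HCC1954, CFI in MDA-MB-231 and OVCAR8, and SERPING1 in MDA-MB-231 and SKOV3, where counts were at most 4.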

Other observations

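Some low complement genes, named after their values were seen, also differed between the HCC1954 libraries. FCN2, a lectin pathway recognition protein, had 41 counts in EV, 30 in SIVA-WT and 4 in SIVA-D160N. VTN, a soluble inhibitor of the terminal complex, had 24, 38 and 3. C4BPA had 7, 19 and 0 counts. In MDA-MB-231 the anaphylatoxin receptor C5AR1 had 137 counts in EV, 28 in SIVA-WT and 12 in SIVA-D160N. It was lower in both transfectants, at 0.234 times the EV level in SIVA-WT and 0.0962 times in SIVA-D160N. Each of these values compares single libraries.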
